A study of Mus musculus with 3 samples.

Results

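The enzymes and regulators by which cells make sterols and fatty acids were examined in regenerating mouse muscle, as a set of 30 genes of the 32285 features measured. The genes were listed by symbol from the textbook pathways, with earlier results of these data known, and all 30 had at least 50 UMIs (unique molecular identifiers, each standing for 1 captured RNA molecule) over all cells kept. Single-cell RNA sequencing had been done on cell suspensions of tibialis anterior muscle of C57BL/6J mice, collected 4 days after damage by barium chloride. The 3 groups were young mice given PBS (young PBS), old mice given PBS (old PBS) and old mice given recombinant meteorin-like protein (old rMETRNL), and all 3 groups, controls included, had injured muscle. According to the study's methods, mice of a group were pooled. Each group was 1 library, so the groups had no replicates and no test between them was possible. Every interval below covers counting error only and describes these libraries, not the spread between mice.

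Sterol synthesis runs from acetyl-CoA through mevalonate to the isoprenoids and then, from squalene, to lanosterol and cholesterol, while fatty acid synthesis lengthens acetyl-CoA to palmitate, which is then elongated and desaturated. Both routes are driven by the SREBP transcription factors, which SCAP carries to the Golgi for activation when membranes are low in sterol and which INSIG proteins hold back in the endoplasmic reticulum. Growing and dividing cells make membrane lipid, and Schwann cells make large amounts of cholesterol for myelin.

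The promoters of 24 members were matched in a RefSeq table of build GRCm38.p6, and the 250 bases before each start were searched on both strands for 4 motifs known for SREBP-driven genes. The CCAAT box bound by NF-Y (CCAAT) lay in a window of 19 of the 24 members (79.2%), against 37.5% of the 27025 genes in the table, and the GC box bound by Sp1 (GGGCGG) in 20 (83.3%), against 35.4%. The palindromic E-box CACGTG was found for 5 members (20.8%, against 6.86% of genes). The sterol regulatory element, searched as TCACNCCAC, was found for 1 member (4.17%, against 1.22%). A match is a description and not a binding site, and other spellings of the element were not searched. The upstream stretches that lie outside annotated exons are printed for 4 members, to show these motifs in each of the arms described below: Hmgcs1 (chr13:119690101-119690350, plus strand) and Mvk (chr5:114444061-114444268, plus strand) of the mevalonate arm, Hsd17b7 (chr1:169969242-169969408, minus strand) of the late sterol arm and Fasn (chr11:120824548-120824797, minus strand) of the fatty acid arm. Capitals mark the CCAAT box on either strand (CCAAT or ATTGG) and the sterol regulatory element of Hmgcs1, and in Fasn a pair of CCAAT boxes on opposite strands overlap.
Hmgcs1: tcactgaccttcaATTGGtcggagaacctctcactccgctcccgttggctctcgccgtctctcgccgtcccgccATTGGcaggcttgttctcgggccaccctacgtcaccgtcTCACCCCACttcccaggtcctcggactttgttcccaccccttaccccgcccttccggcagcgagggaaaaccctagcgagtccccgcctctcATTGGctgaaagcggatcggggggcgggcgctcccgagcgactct
Mvk: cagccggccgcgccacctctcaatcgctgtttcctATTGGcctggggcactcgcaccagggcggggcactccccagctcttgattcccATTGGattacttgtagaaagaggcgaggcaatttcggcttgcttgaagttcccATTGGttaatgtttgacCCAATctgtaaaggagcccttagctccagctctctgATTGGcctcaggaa
Hsd17b7: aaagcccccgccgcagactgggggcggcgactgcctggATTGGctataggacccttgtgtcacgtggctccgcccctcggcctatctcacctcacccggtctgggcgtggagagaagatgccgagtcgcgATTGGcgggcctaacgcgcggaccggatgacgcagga
Fasn: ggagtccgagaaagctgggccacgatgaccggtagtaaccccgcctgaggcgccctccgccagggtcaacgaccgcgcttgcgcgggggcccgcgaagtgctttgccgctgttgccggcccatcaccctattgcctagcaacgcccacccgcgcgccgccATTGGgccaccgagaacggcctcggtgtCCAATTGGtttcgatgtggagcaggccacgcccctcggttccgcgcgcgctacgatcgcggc

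The files held 12168, 12568 and 14012 barcodes in young PBS, old PBS and old rMETRNL, and 10293, 9946 and 11353 cells were kept, with median UMI counts of 15097, 13649.5 and 14482. Between 58 and 80 barcodes were shared by any pair of libraries and 13 by all 3. The 252 kept cells with a shared barcode were left out in an alternative, where none of its 128 values (list medians and members) moved by more than its interval. Cells were named by markers, with names ending in "-like". FAP-like cells (fibro/adipogenic progenitors, the mesenchymal cells of muscle) numbered 1647, 1309 and 1688, and macrophage/monocyte-like cells 5899, 5499 and 6371. Levels are given in CPM, the UMIs of a gene divided by all UMIs of the class in that library and scaled to 1e6, always in the order young PBS, old PBS, old rMETRNL. The age ratio divides the level in old PBS by that in young PBS, and the treatment ratio divides the level in old rMETRNL by that in old PBS, so both share the old PBS library.

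The synthesis genes were spread over the cell classes in different ways. Of the 8 classes with at least 50 cells in each library, MuSC/myoblast-like cells (muscle stem cells and their progeny) had the highest mean level of 8 members, among them Fdps (60.1 CPM, 52.2 to 75.0 over the libraries), Fdft1 (16.4 CPM, 14.6 to 18.9) and Srebf2 (75.0 CPM, 71.1 to 78.1). FAP-like cells had the highest level of 5 members, Hmgcs1, Hsd17b7, Acaca, Scd1 and Scd2. Hmgcs1 makes the precursor of mevalonate, and its mean in FAP-like cells was 59.0 CPM (51.3 to 66.2), against 40.0 (37.5 to 43.3) in MuSC/myoblast-like cells and 22.5 in macrophage/monocyte-like cells. Dendritic-like cells led for 4 members, including Pmvk, phosphomevalonate kinase (64.5 CPM, 57.9 to 69.0, against 36.7 in the next class). For 7 of the 30 members the libraries of the leading class did not overlap those of the class second to it, and for the other 23 they did. The counts of leading classes and of overlaps were not made over all genes, so no background share stands beside them.

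Glial-like cells (Schwann and related cells) stood above these 8 classes for several members, but they numbered 28, 68 and 47 and so entered no ratio. Over the 3 libraries together, their Hmgcs1 level was 199 CPM (95% Poisson interval 170 to 232), Idi1 was 142 CPM (118 to 170), Cyp51 was 140 CPM (115 to 168) and Scd2, a stearoyl-CoA desaturase, was 943 CPM (878 to 1011). The 43 B-like cells held 71 UMIs of Scd1, which came to 91.5, 499 and 572 CPM, the highest level of this gene in any class. Me1, the malic enzyme that supplies NADPH for fatty acid synthesis, had a mean of 27.0 CPM in FAP-like and 27.4 CPM in MuSC/myoblast-like cells but 0.575 CPM in dendritic-like cells.

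**Figure D1:**
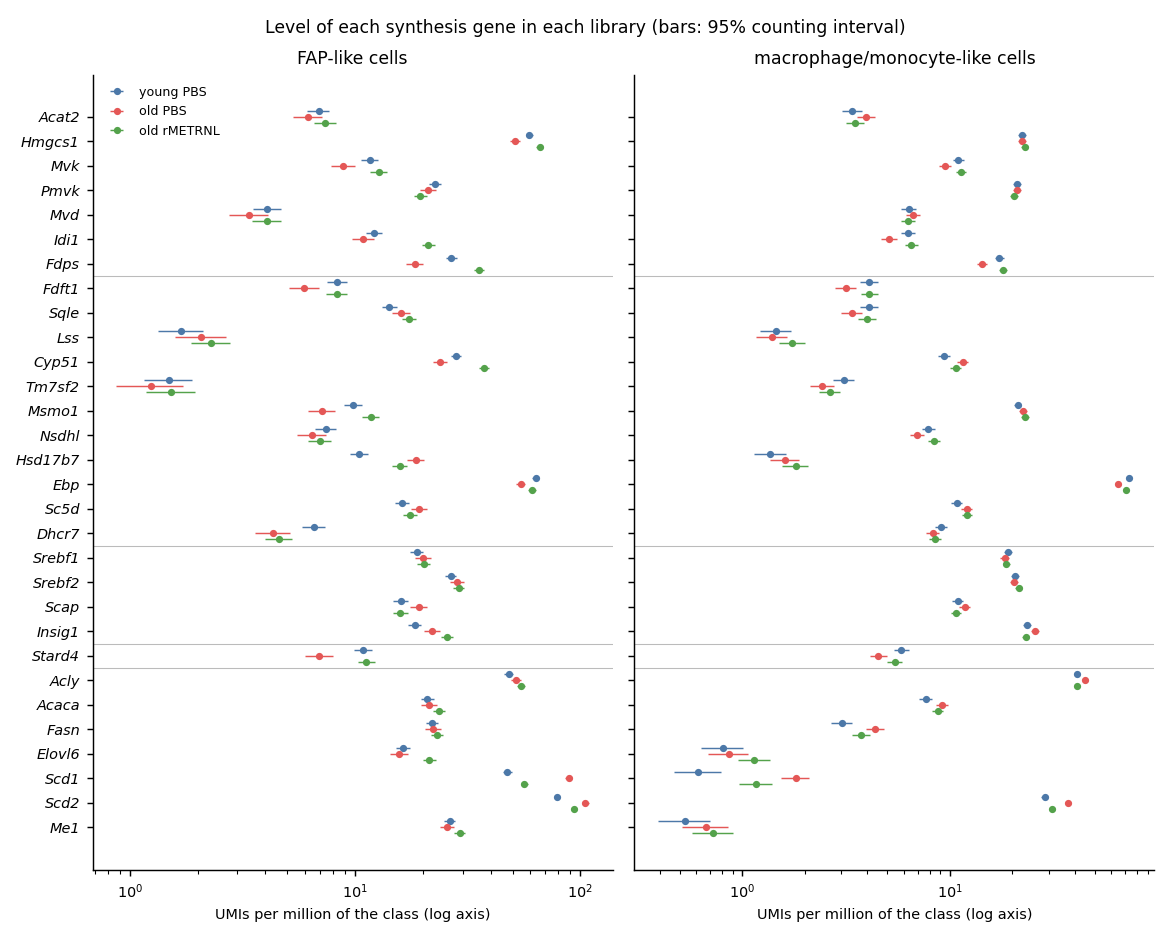
Level of each of the 30 genes in FAP-like (left) and macrophage/monocyte-like cells (right), in CPM on a log axis, with 1 point per library and its 95% counting interval. Grey lines separate the mevalonate arm, the squalene to cholesterol arm, the SREBP regulators, sterol transport and the fatty acid arm, and Scd1 stands out with 47.5, 88.7 and 56.5 CPM in FAP-like cells.

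In FAP-like cells Fdps, Hmgcs1 and Mvk of the mevalonate arm were lower in old PBS than in either other library, by more than counting error. All 7 genes of this arm had an age ratio under 1, with a median log2 ratio of -0.21 (-0.54 to -0.10), and 6 of 7 had a treatment ratio over 1, with a median of 0.37 and an interval over the genes that held 0 (-0.12 to 0.96). The medians over all 14237 genes with at least 50 UMIs in the class were -0.04 and 0.02, with 7811 genes below 0 for age and 7413 above 0 for treatment. Fdps, which makes farnesyl pyrophosphate, the last intermediate shared by sterols and prenyl groups, stood at 26.7, 18.4 and 35.5 CPM. Its level was lowest in old PBS, with ratios of 0.689 (0.621 to 0.763) for age and 1.93 (1.75 to 2.13) for treatment. Idi1, the isomerase before it, stood at 12.1, 10.8 and 21.2 CPM. Only its treatment ratio left out 1 (1.95, 1.72 to 2.23), since the age ratio was 0.893 (0.775 to 1.03). With every cell thinned to 2000 UMIs, which left 30, 34 and 52 UMIs of Idi1, these ratios were 1.18 (0.754 to 1.88) for treatment and 1.44 (0.856 to 2.44) for age, so the former no longer left out 1 and the latter lay above 1. The age ratios of Acat2 (1.27, 0.579 to 2.79) and Pmvk (1.115, 0.784 to 1.58) also lay above 1 with thinned cells. Fdps under the same thinning had 1.57 (1.09 to 2.28) for treatment and 0.813 (0.549 to 1.19) for age. For Hmgcs1 and Mvk no thinned interval left out 1, with age ratios of 0.881 (0.695 to 1.11) and 0.731 (0.418 to 1.251). Hmgcs1 stood at 59.5, 51.3 and 66.2 CPM and differed less, with a treatment ratio of 1.29 (1.21 to 1.37). Mvk, mevalonate kinase, had a treatment ratio of 1.44 (1.24 to 1.68), and those of Acat2, Pmvk and Mvd did not leave out 1.

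The squalene to cholesterol arm was mixed. Of its 11 genes, 7 had an age ratio under 1 and 9 a treatment ratio over 1, beside 7811 and 7413 of all 14237 genes. The median log2 ratios were -0.23 (-0.49 to 0.30) and 0.15 (-0.14 to 0.65), and both intervals over the genes held 0. Cyp51, the lanosterol demethylase, stood at 28.0, 23.8 and 37.4 CPM, with a treatment ratio of 1.57 (1.44 to 1.72). Msmo1, the oxidase of the next demethylation, stood at 9.82, 7.14 and 11.8 CPM, giving ratios of 0.727 (0.613 to 0.859) for age and 1.65 (1.40 to 1.94) for treatment. Both were lowest in old PBS and highest in old rMETRNL. Fdft1, squalene synthase, was at 8.35, 5.93 and 8.29 CPM and so lower in old PBS than in either other library, but thinning to 2000 UMIs turned both directions, with 1.03 (0.549 to 1.90) for age and 0.811 (0.425 to 1.55) for treatment on 26, 21 and 22 UMIs. It overlaps Ctsb, a highly expressed gene on the opposite strand. Dhcr7, which makes cholesterol from its last precursor, was lower in both old libraries, at 6.56, 4.31 and 4.58 CPM. Sqle, squalene epoxidase, stood at 14.2, 16.0 and 17.4 CPM, and neither ratio left out 1. Ebp, the sterol isomerase, stood at 63.5, 54.3 and 60.9 CPM and Sc5d, a late desaturase, at 16.1, 19.3 and 17.6 CPM, so that the former was lowest and the latter highest in old PBS. The intervals of Lss, Nsdhl and Tm7sf2 held 1 in both contrasts, on 60 to 101, 186 to 338 and 36 to 68 UMIs a library.

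Hsd17b7, a ketoreductase of the same arm, went the other way. It stood at 10.5, 18.6 and 15.8 CPM, giving ratios of 1.78 (1.57 to 2.02) for age and 0.850 (0.758 to 0.953) for treatment. Over the 18 genes of both sterol arms together, the median log2 age ratio was -0.22 (order-statistic interval over the genes -0.39 to -0.10), with 14 below 0. With cells thinned to 2000 UMIs it was -0.068. The median log2 treatment ratio was 0.26 (0.12 to 0.53), with 15 above 0, and 0.32 with thinned cells. Of all 14237 genes, 7811 lay below 0 for age and 7413 above 0 for treatment.

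Of the genes for the SREBP factors in FAP-like cells, Srebf1 had 856, 580 and 885 UMIs, with ratios of 1.07 for age and 1.01 for treatment, and Srebf2 stood at 26.7, 28.3 and 28.9 CPM, and no interval of their ratios left out 1. With thinned cells, however, the age ratio of Srebf1 was 1.58 (1.10 to 2.27) on 58, 72 and 69 UMIs, and its treatment ratio was 0.742 (0.525 to 1.05). Insig1, which retains SREBP precursors and is itself an SREBP target, went from 18.4 to 22.0 and 25.6 CPM, higher in each step (age ratio 1.19, 1.07 to 1.32, and treatment ratio 1.16, 1.06 to 1.28). Scap, the carrier, was at 15.9, 19.1 and 15.9 CPM, and its treatment ratio of 0.829 (0.740 to 0.928) became 1.17 (0.791 to 1.75) with thinned cells. With thinned cells the ratios of Insig1 were 1.54 (1.07 to 2.21) for age and 1.11 (0.807 to 1.52) for treatment. Stard4, a cytosolic sterol carrier, stood at 10.8, 6.93 and 11.2 CPM, giving ratios of 0.640 (0.541 to 0.756) for age and 1.62 (1.37 to 1.92) for treatment, and with thinned cells 0.424 (0.208 to 0.811) and 1.97 (1.01 to 4.07).

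In the fatty acid arm of FAP-like cells, both desaturases were highest in old PBS, while the synthase differed by less than counting error. Scd1, stearoyl-CoA desaturase, stood at 47.5, 88.7 and 56.5 CPM, giving ratios of 1.87 (1.76 to 1.98) for age and 0.637 (0.603 to 0.673) for treatment. Scd2 stood at 78.9, 105 and 93.9 CPM, giving ratios of 1.34 (1.27 to 1.40) for age and 0.891 (0.850 to 0.934) for treatment. Scd1 and Scd2 are paralogs that lie next to each other on chromosome 19 (44394455 to 44407879, minus strand, and 44293674 to 44306864, plus strand, in GRCm38), and whether reads were shared between them was not tested. Fasn, fatty acid synthase, stood at 22.1, 22.2 and 23.2 CPM, and its ratios were 1.01 (0.909 to 1.11) and 1.05 (0.947 to 1.16). Elovl6, which elongates palmitate, had a treatment ratio of 1.36 (1.22 to 1.53), while Acly and Acaca, which feed the synthase, had treatment ratios of 1.05 (0.986 to 1.12) and 1.10 (0.998 to 1.22). Me1 stood at 26.4, 25.6 and 29.1 CPM. The median log2 ratio of the 7 genes was 0.03 for age (-0.05 to 0.90) and 0.07 for treatment (-0.65 to 0.44).

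A member was counted as past the fold limit where its lower level was at most 0.8 of its higher one. Over all 30 members in FAP-like cells, 3 were past it with the higher level in old PBS for age (17.2% of all genes counted were) and 6 with the lower level there (19.8% of genes). For treatment, 9 were past it with the higher level in old rMETRNL (14.6% of genes) and 1, Scd1, with the lower (14.3% of genes).

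**Figure D2:**
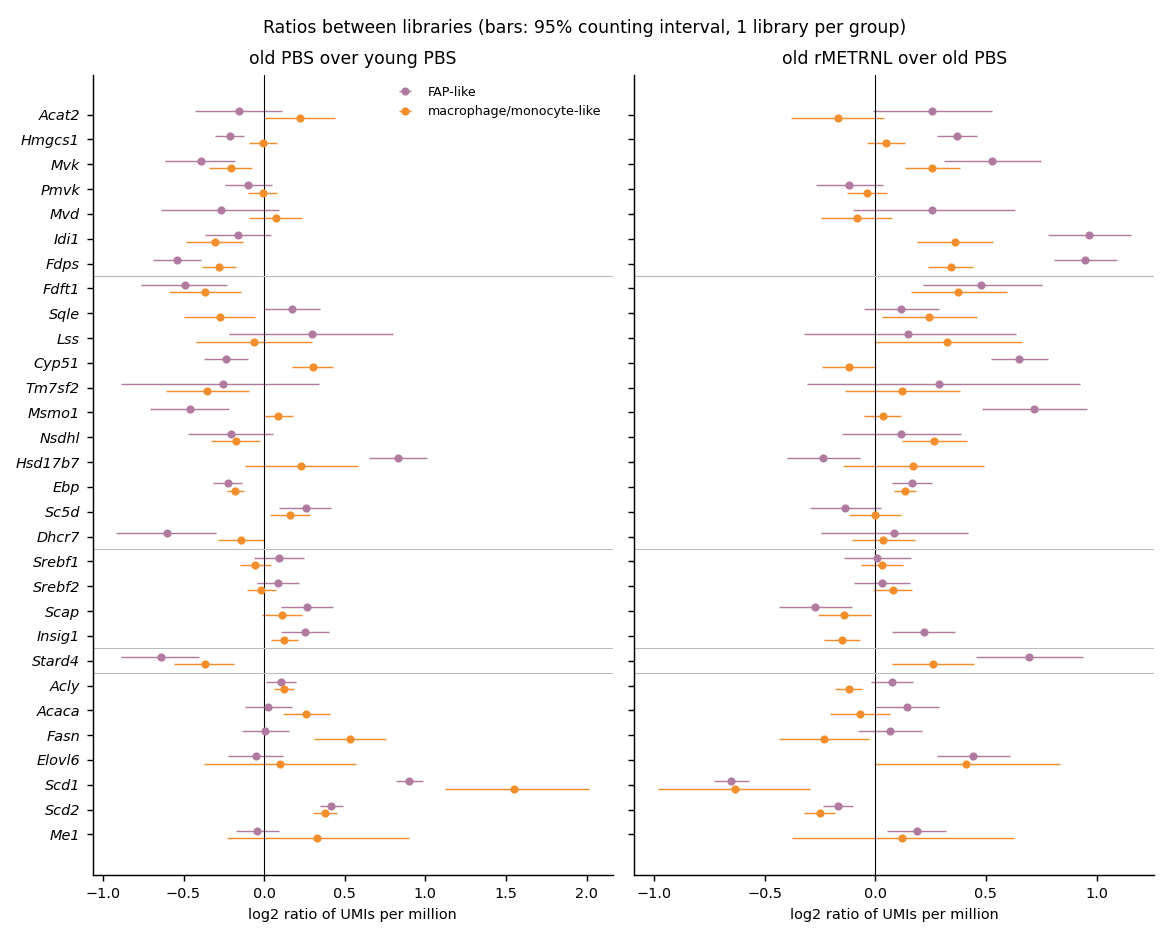
log2 ratio of CPM of old PBS over young PBS (left) and of old rMETRNL over old PBS (right) for each gene, in FAP-like (purple) and macrophage/monocyte-like cells (orange), with 95% counting intervals. Fdps, Idi1, Msmo1, Cyp51 and Stard4 lie to the right in the treatment panel for FAP-like cells, and Scd1 lies to the right in the age panel and to the left in the treatment panel in both classes.

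The cell cycle list had the same directions. All 20 genes of a cell cycle list were lower in FAP-like cells of old PBS than of young PBS (median log2 ratio -0.75) and all 20 were higher in old rMETRNL than in old PBS (1.01). Of all FAP-like cells, 8.50%, 4.35% and 10.1% fell in the subset led by cycling genes. Without that subset, the sterol median was -0.17 for age (-0.29 to 0.02) and 0.18 for treatment (-0.02 to 0.44), and the cell cycle medians were still -0.51 and 0.50. Median UMIs per FAP-like cell were also lowest in old PBS, at 26084, 21695 and 24583. The part of cell division in the ratios was not tested. The values given for thinned cells have depth made equal, but thinning also gives each cell the same weight. The part of depth alone in the ratios was therefore not tested.

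The FAP-like subsets differed in their levels and in the direction of their ratios. Of the 18 sterol genes, 9 had their highest level over the 3 libraries together in the subset led by Crabp1, Il11 and Inhba, 7 in the cycling subset, and 1 each in the Pi16 and the Inmt subset. Within single libraries, the Crabp1 subset led for 7, 8 and 10 of them and the cycling subset for 5, 6 and 7. These subsets also had the highest median UMIs per cell of the FAP-like subsets, and the same count was not made over all genes. Hmgcs1 stood at 129, 93.0 and 138 CPM in the Crabp1 subset and at 74.9, 53.9 and 94.3 CPM in the cycling one, against 39.7, 46.2 and 38.7 CPM in the FAP-like cells of no marker-led subset, called other. Idi1 was at 37.2, 25.3 and 55.6 CPM in the Crabp1 subset, at 23.2, 14.1 and 39.3 CPM in the cycling subset, and at 4.29, 7.03 and 3.89 CPM in the other cells. The old PBS library was thus the lowest of the 3 in both of these subsets and the highest in the other cells. The other cells were themselves a different mix of clusters in each library, since the cluster led by Swt1, Trmt1l and Ddit4l held 353, 140 and 198 of them, the one led by heat shock genes 215, 61 and 183, and the one led by Gucy1a1 and Notch3 96, 156 and 89. The part of this mix in their ratios was not tested. The Crabp1 subset made up 12.8% (95% Clopper-Pearson interval 11.2 to 14.5), 7.03% (5.70 to 8.55) and 13.9% (12.2 to 15.6) of FAP-like cells. These shares depend on the clustering. The subset held 211, 92 and 234 cells, against 581, 382 and 530 at Leiden resolution 0.4 and 168, 82 and 205 at 1.6.

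Hmgcs1, Cyp51 and Insig1 had the same pattern. In the Crabp1 subset the age ratio was 0.724 (0.631 to 0.828) for Hmgcs1, 0.679 (0.519 to 0.879) for Idi1, 0.616 (0.503 to 0.749) for Cyp51 and 0.744 (0.578 to 0.949) for Insig1. In the other cells it was 1.16 (1.05 to 1.28) for Hmgcs1, 1.64 (1.24 to 2.16) for Idi1, 1.47 (1.27 to 1.70) for Cyp51 and 1.69 (1.43 to 2.001) for Insig1. The treatment ratios lay on the opposite side of 1. For Idi1 the treatment ratio was 2.20 (1.72 to 2.85) in the Crabp1 subset, 2.79 (1.90 to 4.24) in the cycling subset and 0.553 (0.404 to 0.754) in the other cells. For Cyp51 it was 2.17 (1.79 to 2.65), 2.13 (1.62 to 2.83) and 0.687 (0.587 to 0.805) in the same order. Past the fold limit, with counting intervals that left out 1, 6 members were higher in one subset and lower in another for age (5.28% of the 10994 genes counted in 2 or more subsets were) and 6 for treatment (4.52% of genes). Msmo1 had the largest treatment ratio of any member in any FAP-like subset, with 86, 6 and 145 UMIs in cycling cells and a treatment ratio of 6.75 (3.03 to 18.7).

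**Figure D3:**
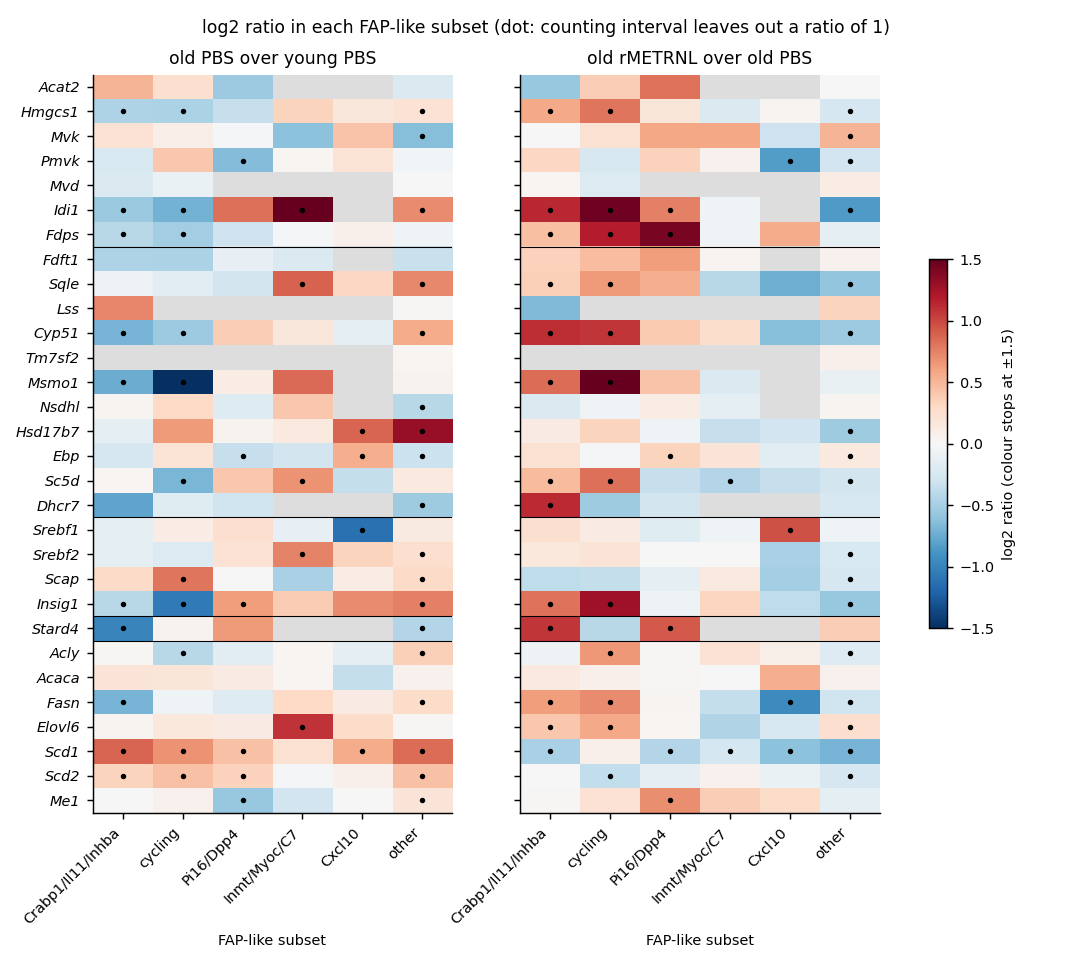
log2 ratio of each gene (down) in each FAP-like subset (across), for old PBS over young PBS (left) and old rMETRNL over old PBS (right). Red is higher and blue is lower, grey cells had under 50 UMIs, and a dot marks a counting interval that leaves out 1. Idi1, Cyp51 and Insig1 are blue for age and red for treatment in the Crabp1 and cycling subsets and the reverse in the other cells, while Scd1 is red for age in every subset.

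The sterol list showed the same split in part for treatment. Its median log2 treatment ratio was 0.35 (0.03 to 0.57) in the Crabp1 subset, 0.42 (-0.05 to 1.08) in the cycling subset and 0.40 (0.12 to 0.62) in the subset led by Pi16 and Dpp4. It was -0.13 (-0.29 to 0.08) in the other cells, -0.07 (-0.35 to 0.20) in the subset led by Inmt, Myoc and C7 and -0.32 (-0.73 to 0.04) in the Cxcl10 subset. Of the 18 genes, 17, 16, 15, 18, 13 and 9 had at least 50 UMIs in these subsets, in this order. In the same order the age medians were -0.23, -0.17, -0.19, 0.007, 0.18 and 0.21, and every interval over the genes held 0. In the cycling subset the cell cycle list was level between the old libraries (0.01), in the Crabp1 subset it was 0.21 (-0.03 to 0.33), and in the Pi16 subset it was 0.52 (0.18 to 1.12). With the mix of subsets held the same in every library, an alternative chosen after the data were seen, the treatment log2 ratio in FAP-like cells was 0.69 for Idi1, 0.57 for Fdps and 0.60 for Msmo1, against 0.96, 0.95 and 0.72 as first given. The age log2 ratio of Idi1 then went from -0.16 to -0.01 and that of Fdps from -0.54 to -0.31.

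Scd1 did not share this split. Its age ratio was over 1 in all 6 FAP-like subsets, from 1.17 (0.995 to 1.38) in the Inmt subset to 1.82 (1.47 to 2.26) in the Crabp1 subset, and its treatment ratio was under 1 in 5 of them, the exception being the cycling subset (1.06, 0.832 to 1.37). Hsd17b7 had an age ratio that left out 1 in the other cells, at 6.28, 15.6 and 10.8 CPM (2.48, 2.02 to 3.05), and in the Cxcl10 subset, at 11.4, 21.1 and 17.3 CPM (1.85, 1.06 to 3.31). The Scd1 level was highest in the Inmt subset, at 105, 123 and 103 CPM, and this subset held 6.80%, 21.6% and 12.7% of FAP-like cells. With the subset mix held the same, the Scd1 log2 age ratio was 0.67 against 0.90.

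**Figure D4:**
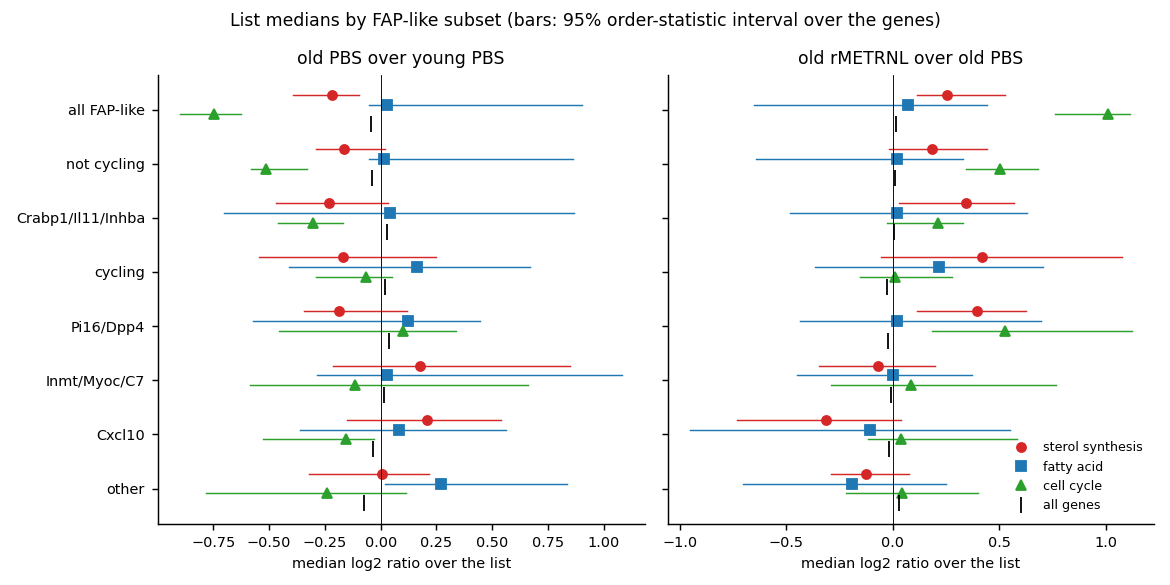
Median log2 ratio of the sterol list (red circles), the fatty acid list (blue squares), the cell cycle list (green triangles) and all genes (black ticks) in all FAP-like cells, in those outside the cycling subset and in each subset, with 95% order-statistic intervals over the genes where a list had at least 6. The treatment median of the sterol list is over 0 in the Crabp1, cycling and Pi16 subsets and under 0 in the Inmt, Cxcl10 and other cells.

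In macrophage/monocyte-like cells the median log2 ratio of the 18 sterol genes was -0.10 for age (-0.28 to 0.09) and 0.13 for treatment (-0.0004 to 0.27). Both intervals held 0. Over all 14227 genes the medians were 0.00 and 0.05. Whether these ratios differ from those of FAP-like cells was not tested. Idi1 stood at 6.28, 5.08 and 6.52 CPM, giving ratios of 0.809 (0.716 to 0.915) for age and 1.28 (1.14 to 1.45) for treatment. Fdps stood at 17.3, 14.3 and 18.1 CPM, giving ratios of 0.823 (0.765 to 0.886) for age and 1.27 (1.18 to 1.36) for treatment, and Fdft1 at 4.07, 3.16 and 4.10 CPM, giving ratios of 0.776 (0.665 to 0.906) for age and 1.30 (1.12 to 1.51) for treatment. Stard4, at 5.85, 4.52 and 5.42 CPM, and Sqle, at 4.07, 3.36 and 3.99 CPM, were likewise lowest in old PBS. With cells thinned to 2000 UMIs the age ratios were 0.958 (0.671 to 1.36) for Idi1 and 0.981 (0.680 to 1.41) for Stard4, which no longer left out 1, and 0.764 (0.606 to 0.961) for Fdps and 0.595 (0.357 to 0.970) for Fdft1, which did. Hmgcs1 did not differ past counting error, at 22.4, 22.2 and 23.0 CPM. Cyp51 was highest in old PBS, at 9.39, 11.6 and 10.7 CPM. Tm7sf2, a sterol reductase, stood at 3.09, 2.42 and 2.63 CPM, and it overlaps Vps51 on the same strand, so its counts are uncertain. Nsdhl, of the demethylation complex, stood at 7.89, 6.97 and 8.38 CPM, with a treatment ratio of 1.20 (1.09 to 1.33). Srebf1 stood at 19.1, 18.4 and 18.7 CPM, and Insig1 at 23.6, 25.7 and 23.2 CPM.

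In the fatty acid arm of these cells, Scd1, Scd2, Fasn, Acaca and Acly were higher in old PBS than in young PBS by more than counting error, while the age ratios of Me1 (1.26, 0.854 to 1.87) and Elovl6 (1.07, 0.772 to 1.48) held 1. The median log2 ratio of the 7 genes was 0.33 (0.10 to 1.55). With thinned cells the age ratio was 0.952 (0.699 to 1.29) for Acaca and 1.01 (0.885 to 1.15) for Acly, against 1.20 and 1.09 as first given. The treatment median was -0.12 (-0.63 to 0.41). Fasn stood at 3.01, 4.36 and 3.72 CPM, giving ratios of 1.45 (1.24 to 1.69) for age and 0.852 (0.740 to 0.981) for treatment. Scd2 stood at 28.6, 37.2 and 31.2 CPM, giving ratios of 1.30 (1.23 to 1.37) for age and 0.840 (0.801 to 0.881) for treatment. Scd1 was scarce, at 58, 168 and 125 UMIs or 0.613, 1.81 and 1.16 CPM, so that the ratio for age was 2.94 (2.17 to 4.04). Of the 30 members, 4 were past the fold limit upward with age (16.0% of genes) and 3 downward (16.1%), and 5 upward with treatment (16.5%) and 1 downward (10.6%). Of the cell cycle list, 15 of 20 genes were lower in old PBS than in young PBS and 19 of 20 were higher in old rMETRNL than in old PBS (medians -0.13 and 0.42). Of all 14227 genes, 7114 and 8161 were. Without the cycling subset, the sterol medians were -0.12 and 0.09 and the fatty acid medians 0.27 and -0.13.

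Within the macrophage/monocyte-like subsets the sterol list had medians from -0.14 to 0.07 for age and from 0.02 to 0.12 for treatment over 7 subsets. Idi1 was highest in the subset led by the monocyte gene Ly6c2, at 13.2, 10.2 and 13.6 CPM, and in the cycling subset, at 10.5, 9.03 and 10.4 CPM. In the subset led by Spp1 and Gpnmb, genes of lipid-handling macrophages, it stood at 6.68, 4.03 and 5.46 CPM, and old PBS was the lowest of the 3 (0.604, 0.448 to 0.813, for age). Scd2 was highest in the cycling subset, at 37.6, 55.3 and 42.8 CPM, and lowest in the subset led by Cd163, Lyve1 and Cbr2, at 12.0, 18.1 and 13.8 CPM. Its age ratio left out 1 upward in both of these and did not in the Spp1 subset (1.03, 0.929 to 1.15). Insig1 was highest in the Cd163 subset, at 36.1, 46.1 and 35.9 CPM, and higher in old PBS there than in either other library. The interferon subset made up 20.3%, 3.15% and 11.1% of the class, and Acaca, with 102, 3 and 91 UMIs, had the only member ratios in it that left out 1 (log2 ratios of -1.83 and 2.41).

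Scd1 was higher in old PBS than in young PBS, and lower in old rMETRNL than in old PBS, in CPM, in all 7 classes that had at least 50 cells in each library and at least 50 UMIs of it, though not in all of them relative to FAP marker RNA. The B-like cells, with 6, 20 and 17 cells, were not among these, and their level in old rMETRNL was above that in old PBS. Both intervals left out 1 in 6 of them, pericyte/smooth muscle-like cells being the exception. It stood at 30.9, 55.1 and 41.1 CPM in tenocyte-like cells, at 8.11, 16.0 and 11.6 CPM in dendritic-like cells, at 7.57, 13.5 and 9.16 CPM in endothelial-like cells and at 12.2, 16.5 and 10.8 CPM in MuSC/myoblast-like cells. In T/NK-like cells, 1, 1 and 0 UMIs were counted. Free RNA was not subtracted. In the barcodes with under 500 genes, Scd1 came to 24.4, 35.7 and 17.1 CPM on 8, 31 and 11 UMIs. FAP marker genes together gave 352, 321 and 351 CPM in macrophage/monocyte-like cells and 33342, 40350 and 33393 CPM in FAP-like cells, and there were 1.74, 5.63 and 3.31 UMIs of Scd1 per 1000 of the FAP markers in the former against 1.42, 2.20 and 1.69 in the latter. On that scale Scd1 was also highest in old PBS in tenocyte-like, dendritic-like and pericyte/smooth muscle-like cells, but it was level in MuSC/myoblast-like cells (21.7, 21.5 and 21.7) and highest in young PBS in endothelial-like cells (42.6, 39.0 and 34.3). In these last classes the FAP markers themselves were highest in old PBS, at 563, 769 and 496 CPM in MuSC/myoblast-like and 178, 347 and 267 CPM in endothelial-like cells. What free RNA adds to the Scd1 ratio of classes with a low level was not tested.

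**Figure D5:**
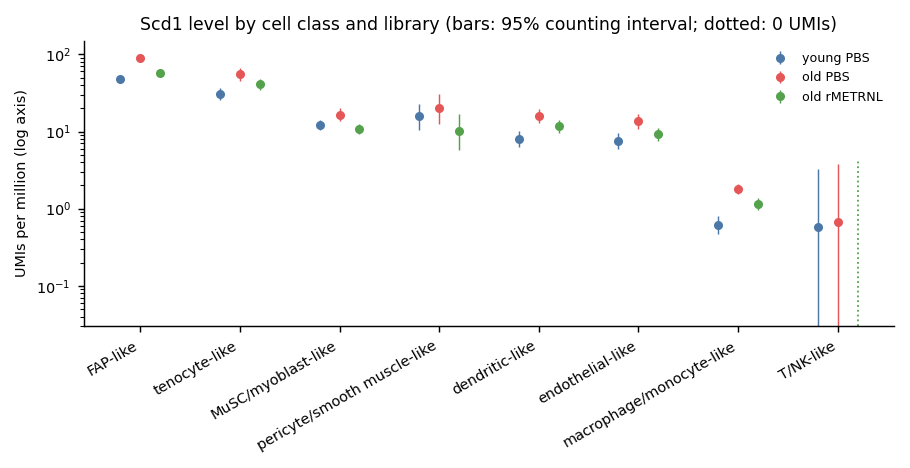
Level of Scd1 in CPM (log axis) in each of the 8 classes with at least 50 cells in every library, with 1 point per library and its 95% counting interval. The old PBS point is the highest of the 3 in every class from FAP-like to macrophage/monocyte-like cells, and T/NK-like cells are near 0.

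In endothelial-like cells most sterol genes were lowest in old PBS. Of the 16 sterol genes with at least 50 UMIs, 15 had an age ratio under 1, with a median log2 ratio of -0.59 (-0.86 to -0.16), and 13 a treatment ratio over 1, with a median of 0.34 (0.14 to 0.67). The medians over all 11533 genes were -0.04 and 0.05, with 6203 genes below 0 for age and 6369 above 0 for treatment. Fdps stood at 35.8, 15.6 and 26.3 CPM, giving ratios of 0.437 (0.344 to 0.549) for age and 1.68 (1.33 to 2.14) for treatment. Mvk, at 14.7, 6.68 and 10.7 CPM, and Mvd, at 9.28, 4.40 and 8.06 CPM, were also lowest in old PBS. Of the 28 members counted there, 3 were past the fold limit upward with age (20.6% of genes), 15 downward (23.9%), 11 upward with treatment (21.6%) and 3 downward (17.0%). The median UMI count of these cells was 11057.5, 3749 and 6866, so their depth was lowest in old PBS too, and the cell cycle list had medians of -0.67 and 0.49. The mix of endothelial-like clusters differed too. At a finer clustering, the cluster led by Aqp1 and Cldn5 held 301, 651 and 559 cells and the deeper one led by Pgf, Prnd and Apln held 125, 64 and 170. The part of depth, cell cycle or this mix in these ratios was not tested.

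In dendritic-like cells Fdps stood at 33.2, 23.1 and 42.9 CPM, giving ratios of 0.697 (0.568 to 0.852) for age and 1.86 (1.54 to 2.26) for treatment, and Elovl6 went from 12 UMIs in young PBS to 28 and 44. In MuSC/myoblast-like cells Lss, lanosterol synthase, stood at 4.38, 2.49 and 5.11 CPM, and Fdps was lower in both old libraries, at 75.0, 53.1 and 52.2 CPM. In tenocyte-like cells the sterol list had a median log2 treatment ratio of -0.51, with an interval over the genes that held 0 (-0.84 to 0.29). Of 14 genes, 11 had a treatment ratio under 1, beside 5599 of all 9500 genes in that class (median -0.06). Cyp51 there stood at 24.7, 24.6 and 14.7 CPM. Whether the classes differ in their ratios was not tested.

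Neighbouring pathways were read from fixed lists. In FAP-like cells, 11 of the 15 other SREBP and isoprenoid genes had an age ratio over 1 and 11 a treatment ratio under 1. Of all 14237 genes, 6426 and 6824 did. The median log2 ratios were 0.13 (-0.004 to 0.21) and -0.06 (-0.19 to 0.06), and both intervals over the genes held 0. Acacb, the mitochondrial acetyl-CoA carboxylase, had log2 ratios of 0.77 and -0.96 and Lpin1 of 0.45 and -0.32. Of the 16 genes for sterol uptake, storage and efflux, 11 were higher in old PBS than in young PBS and 13 were lower in old rMETRNL than in old PBS. The medians were 0.23 (-0.11 to 0.43, which held 0) and -0.15 (-0.32 to -0.08). Cd36, a fatty acid and lipoprotein receptor, had log2 ratios of 1.19 and -0.57, and Abca1, a cholesterol efflux pump and LXR target, of 0.60 and -0.32. In macrophage/monocyte-like cells, Abca1 stood at 393, 612 and 393 CPM and Npc1, which exports cholesterol from lysosomes, at 150, 214 and 166 CPM, while Ch25h, which makes 25-hydroxycholesterol, was at 6.13, 3.19 and 5.66 CPM. The 12 genes of fatty acid oxidation had medians of -0.12 and 0.09 in FAP-like and 0.05 and 0.07 in macrophage/monocyte-like cells, and the intervals over the genes all held 0.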

How the data were processed

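Single-cell 3′ RNA libraries of young PBS, old PBS and old rMETRNL muscle were analysed from the UMI counts per gene and cell barcode that the authors deposited. The count matrices were written by Cell Ranger 5.0.0 according to their headers, and the submitters' processing notes also name 3.1.0, with reads aligned to mm10. Members and lists were chosen with earlier results of these data known, and the conditions for naming classes were revised after cluster tables had been seen.

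Barcodes were kept from 500 genes upward if mitochondrial UMIs made up less than 10%, and doublets were removed with Scrublet scores at a rate of 0.8% per 1000 barcodes. Cells were clustered in scanpy 1.11.5 (2000 variable genes without the members, 30 principal components, 20 neighbours, Leiden resolution 0.8), and classes needed at least 3 detected markers. Raw UMIs were summed per class and library. Ratios were taken from the counts as they stood, with exact conditional Poisson intervals (95%), while log2 ratios, list medians and counts past the fold limit had 0.5 added to each count, for genes with at least 50 UMIs in classes with at least 50 cells in each library. Values in every library were given for 8 preset members (Hmgcs1, Idi1, Sqle, Insig1, Srebf1, Fasn, Scd1 and Scd2) and for the 6 with the largest absolute log2 ratio in either contrast in FAP-like or macrophage/monocyte-like cells, among those whose interval left out 1. In smaller classes and subsets the 3 largest were taken by the same conditions, and from each neighbouring pathway at most 3. Other members named were chosen after their values were seen. The procedure was checked on simulated data. With 1 library per group no test between groups was made, and free RNA was not subtracted. The alternatives changed filters, doublets, resolution, scaling, the weight of each cell, depth, minimum UMIs and the cycling subset.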

Additional observations from a re-analysis of the deposited data

Results flagged for a closer look

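In 8 members, the ratios of 2 FAP-like subsets were past the fold limit (the lower level at most 0.8 of the higher) on opposite sides, each with a counting interval that left out 1, for age in 6 members, for treatment in 6 and for both in 4. By the same rule 5.28% of all genes counted were opposite for age and 4.52% for treatment. The difference between subsets was not tested, and the subsets set side by side were chosen after their values were seen. For age, the log2 ratio of Idi1 was 2.20 in the Inmt subset and -0.70 in the cycling subset, that of Sc5d, a late sterol desaturase, 0.67 and -0.69 in the same subsets, and that of Cyp51 0.56 in the other cells and -0.70 in the Crabp1 subset. Ebp, a sterol isomerase, was at 0.54 in the Cxcl10 subset and -0.34 in the Pi16 subset. Insig1 was at 0.76 in the other cells and -1.06 in the cycling subset, and Acly at 0.36 and -0.41 in the same subsets.

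For treatment, the log2 ratio in the cycling subset and in the other cells was 1.46 and -0.85 for Idi1, 0.64 and -0.59 for Sqle, and 1.28 and -0.56 for Insig1. Cyp51 was at 1.11 in the Crabp1 subset and -0.54 in the other cells. Sc5d was at 0.83 in the cycling subset and -0.44 in the Inmt subset, and Fasn at 0.70 in the cycling subset and -0.95 in the Cxcl10 subset.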

How the results depend on the processing

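No paired analysis was possible because each group was 1 library. The medians of the sterol and fatty acid lists in FAP-like and macrophage/monocyte-like cells stayed within their interval over the genes in all but 1 case. With cells thinned to 2000 UMIs the sterol age median in FAP-like cells was -0.068 against -0.22. Over the alternatives it ranged from -0.27 to -0.068 and the treatment median from 0.15 to 0.32. Of 1900 member values, 1783 lay within the counting interval, 112 lay outside it and 5, whose interval had left out 1, changed sign. Thinning to 2000 UMIs, which makes depth equal, gives each cell the same weight and leaves few counts, accounted for 56 of the 112 and 4 of the 5. Of its 104 values, 44 stayed within the interval. The mean of per-cell CPM, which gives cells the same weight without thinning, put 27 of its 120 values outside the interval. The sign changes were, in FAP-like cells thinned to 2000 UMIs, Fdft1 for age (0.045) and treatment (-0.30) and Scap for treatment (0.22), and in macrophage/monocyte-like cells Acaca for age when thinned (-0.070) and Nsdhl for age with a stricter cell filter (0.020). The cause of these sign changes was not tested. The stricter filter also changed which clusters made up the classes. Among others, a cluster of 943, 149 and 574 cells led by Txnip and Ifit3b left the macrophage/monocyte-like class. A cluster of 132, 46 and 135 cells led by Cenpf and Prc1 was named pericyte/smooth muscle-like. With a threshold of 1.5-fold, members lower with age in FAP-like cells went from 6 to 2 (7.82% of all genes) and those higher with treatment from 9 to 5 (5.42%). In macrophage/monocyte-like cells, members higher with age went from 4 to 1 (6.42%), lower with age from 3 to 0 (6.87%) and higher with treatment from 5 to 0 (6.09%). Leaving out shared barcodes and holding the subset mix fixed were chosen after seeing the data. The alternatives were run on FAP-like and macrophage/monocyte-like cells as classes. The shares and ratios of single subsets were not checked under them.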
